A study of Rattus norvegicus with 5 samples.

Results

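Cardiac microRNAs (miRNAs) on day 20 after transverse aortic constriction (TAC) were set against those on day 15, to describe the change over the latest interval that the time course covers. TAC is an operation that narrows the aortic arch and makes the left ventricle pump against a higher pressure. The comparison used the TAC day 20 array and the TAC day 15 array, 2 of the 5 arrays of the series, and all 678 rat miRNA probes of the 2672 probes on the array, each printed as 4 spots. Of these, 206 were above the detection floor on both arrays and carry the results. Both arrays were hybridised with total heart RNA of male SD (the strain label) rats, 6 to 8 weeks old by the housing protocol, that had all undergone TAC under barbital sodium anaesthesia. The groups differ in the labels by the day of sampling alone. The other arrays held hearts from TAC days 5 and 10 and hearts of sham-operated rats, whose aorta was not narrowed.

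Each array stood for the hearts of 5 rats together, from which 1 microgram of RNA was labelled with the dye Hy3. No spread between rats could be measured, so no difference here carries a test across samples. The SE printed with a log2 difference covers only the 4 spots of a probe on each of the 2 arrays. It takes these spots as independent, and precision is limited by having 1 array a side. In RNA from whole hearts, fewer cells of a type and less RNA per cell cannot be told apart.

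A miRNA is a short RNA cut from a hairpin. It guides a silencing complex to messenger RNAs, mostly through pairing of its seed, the bases just behind its 5′ end, and thereby lowers the output of those messages. Either arm of a hairpin can become the miRNA, and the less abundant arm was written with an asterisk when the array was designed. In the heart, miRNAs of muscle cells such as miR-1 and miR-133a restrain growth, whereas miRNAs of fibroblasts, vessels and blood-borne cells report on the other cells of the tissue. Hairpins often lie close together and are transcribed as 1 unit, and some miRNAs differ from a relative by a single base.

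In all, 11 of the 206 miRNAs (5.34%) differed 2-fold or more between the arrays: 6 (2.91%) read higher on day 20 and 5 (2.43%) read lower. The higher ones were miR-193, miR-146a, miR-338, miR-10a-5p, miR-125b-5p and miR-223. The lower ones were let-7c, let-7c-1*, miR-3571, miR-675 and miR-181a-2*. Of these 11, 10 were matched to a mature sequence in RefSeq (build GRCr8), and let-7c-1* was not. The sequences are shown because 3 of the results turn on them: relatives that share a seed, hairpins that neighbour each other, and a miRNA that lies opposite miR-1. Seeds, bases 2 to 8, are in capitals.

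The miRNAs that read 2-fold or more higher on day 20 were these, 5′ to 3′.
miR-193: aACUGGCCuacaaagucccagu
miR-146a: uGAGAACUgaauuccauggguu
miR-338: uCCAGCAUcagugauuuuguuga
miR-10a-5p: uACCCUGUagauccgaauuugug
miR-125b-5p: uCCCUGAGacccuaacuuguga
miR-223: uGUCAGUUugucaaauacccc
Those that read 2-fold or more lower, apart from let-7c-1*, were these.
let-7c: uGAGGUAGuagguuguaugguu
miR-3571: uACACACUucuuuacauuccaua
miR-675: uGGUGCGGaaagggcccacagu
miR-181a-2*: aCCACCAAccguugacugu
No seed was shared among these 10. Relatives and neighbours that the results refer to were these.
let-7a: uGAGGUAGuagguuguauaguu
let-7b: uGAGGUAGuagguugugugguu
miR-146b: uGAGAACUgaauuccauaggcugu
miR-125a-5p: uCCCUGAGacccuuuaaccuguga
miR-365: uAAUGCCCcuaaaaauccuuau
miR-1: uGGAAUGUaaagaaguguguau

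Most of the 206 miRNAs read alike on the 2 arrays. Of them, 190 (92.2%) lay within 1.5-fold, and the median absolute log2 difference was 0.236. The median difference was -0.02, with 99 miRNAs above 0 and 107 below. In 32 miRNAs (15.5%) the 4 spots of 1 array did not overlap the 4 spots of the other, and these were mostly small differences: 6 read higher on day 20 and 26 lower. Of the 11 at 2-fold or more, 7 (3.4% of the 206) had spots that did not overlap, all 5 of the lower ones but just miR-193 and miR-338 of the higher ones.

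**Figure D1:**
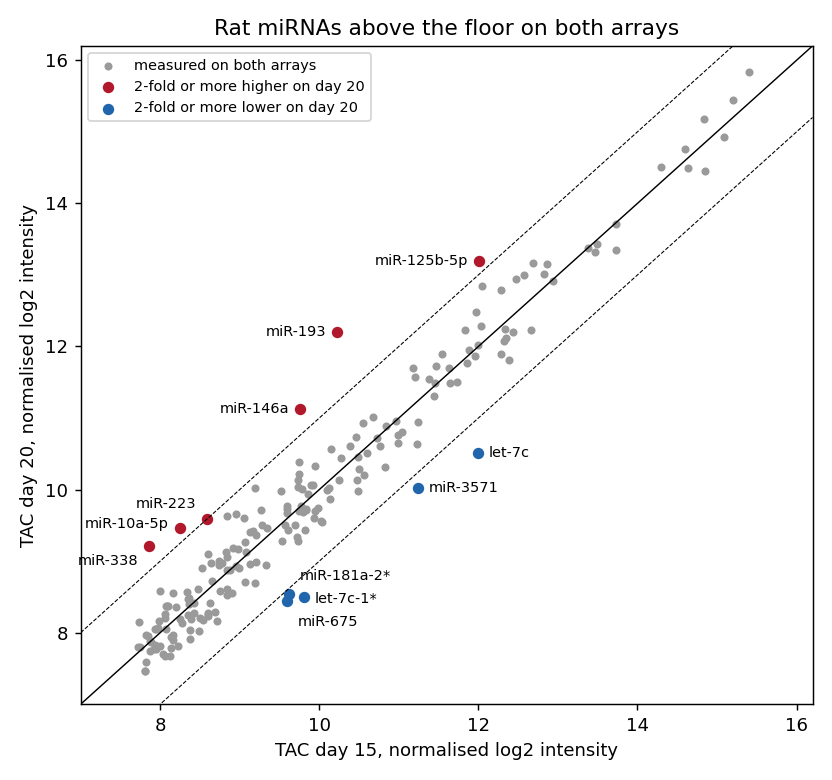
Normalised log2 intensity of the 206 rat miRNAs above the floor on both arrays, TAC day 15 on the horizontal and TAC day 20 on the vertical axis, 1 point per miRNA. The solid line marks equal levels and the dashed lines a 2-fold difference; 6 named miRNAs lie above the upper dashed line and 5 below the lower one.

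The arrays themselves differed in ways that touch these values. The floor, the median plus 3 median absolute deviations of empty and negative-control spots, was 46.4 units of background-subtracted signal on the earlier array and 28.1 on the later one, and the median background was 144 and 101 units. Above the floor were 207 rat miRNAs on day 15 and 257 on day 20. The slide carries each probe in blocks 1 to 18 and again in blocks 19 to 36. The second set read higher, with a median log2 excess of 0.68 on day 15 and 0.36 on day 20, so values in each set of blocks are given beside the results. All 11 miRNAs at 2-fold or more differed in the same direction in both sets of blocks. At 2-fold or more in each set separately were 3 of the higher ones, miR-193, miR-338 and miR-10a-5p, and 2 of the lower ones, let-7c-1* and miR-3571.

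The muscle character of the tissue was plain on both arrays. Of 13 probes for muscle-enriched miRNAs, 10 were above the floor on each array. The 3 others, miR-1*, miR-206* and miR-208b-5p, are the other arms of hairpins whose main arms were measured. Of 7 miRNAs typical of other tissues, the liver miRNA miR-122 and the epithelial miR-200c and miR-141 were below the floor on both arrays. MiR-124 and miR-9 of neurons, miR-375 of endocrine cells and miR-338 were above it.

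MiR-193 gave the widest difference of the comparison. Its 4 spots read 352, 442, 1981 and 2203 units on day 15 and 3524, 3734, 5966 and 5863 units on day 20. Every spot of day 20 was above every spot of day 15, although the 2 sets of blocks on day 15 were far apart. The log2 difference was 1.98 ± 0.66 (SE over spots), or 3.93-fold, with 2.58 in blocks 1 to 18 and 1.35 in blocks 19 to 36. Over TAC days 5, 10, 15 and 20 its mean signal was 223.5, 788.8, 1244.5 and 4771.8 units, and the sham array gave 1820.8 units. It thus read higher at each later TAC time and was above the sham value on day 20 alone.

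The hairpin of miR-193 (mature at chr10:65170370-65170391, plus strand, GRCr8) lies 13.8 kb before that of miR-365 (chr10:65184271-65184292, plus strand). MiR-365 averaged 305.2 units on day 15 and 776.2 on day 20, again with no overlap of spots. Its log2 difference was 0.79 ± 0.24, which is short of 2-fold, and was 0.80 and 0.78 in the 2 sets of blocks. Both members of the pair therefore read higher on day 20, in each set of blocks. The other arm of the first hairpin, miR-193*, was below the floor on both arrays, at -53.5 and -22.5 units.

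MiR-338, which is encoded in an intron of Aatk and is known from neurons and oligodendrocytes, was dim on day 15. Its spots read 166, -59, 92 and 112 units on day 15 and 627, 424, 654 and 674 units on day 20. All spots of day 20 were above all of day 15, and the 2 sets of blocks gave nearly one value, 1.32 and 1.36. On the log2 scale the arrays differed by 1.35 ± 0.38, or 2.54-fold. The mean signals were -91, 96, 77.8 and 594.8 units over the 4 TAC arrays in order of days, and 568 units on sham. The level on day 15 was thus close to the floor of 46.4 units, and with a floor 3 times as high miR-338 had no value on both arrays. The other neuronal miRNAs of the same list did not read higher after normalisation: miR-124 differed by -0.13 ± 0.22 and miR-9 by -0.06 ± 0.20, and miR-375 by -0.33 ± 0.09. In signal, miR-124 read 147.2 units on day 15 and 196.2 on day 20, miR-9 137.2 and 213, and miR-375 83.8 and 87. The sign changed in 2 alternative settings for miR-124, in 5 for miR-9 and in none for miR-375. The summed signal of the 4 measured members of that list was 446 units on day 15 and 1091 on day 20. Whether miR-338 came from other cells in the sample was not tested.

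MiR-146a and miR-223 belong to the leukocyte list. MiR-146a is induced by NF-kappa-B and represses the adaptors Traf6 and Irak1 of innate immune signalling. Its spots read 442, 204, 1269 and 1517 units on day 15 and 1523, 2115, 2367 and 2287 units on day 20. Day 20 was higher in each set of blocks, with 1.81 in the first and 0.92 in the second, and every spot of day 20 was above every spot of day 15 in signal but not after normalisation. Their mean differed by 1.37 ± 0.55 in log2, or 2.58-fold. The mean signals of TAC days 5, 10, 15 and 20 were -110.5, 1469.8, 858 and 2073 units, and sham gave 1236.2 units. In signal, day 15 thus lay below both day 10 and day 20. After normalisation day 10 and day 15 were close, at log2 levels of 9.84 and 9.76. MiR-146b, which has the same seed and is encoded at another locus, read 525 units on day 15 and 919 on day 20, a log2 difference of 0.71 ± 0.89 with overlapping spots.

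MiR-223 is made mainly by myeloid cells such as neutrophils and restrains their activation. Its spots read 21, 78, 543 and 483 units on day 15 and 504, 593, 1022 and 991 units on day 20. The arrays overlapped, because blocks 19 to 36 on day 15 reached the level of blocks 1 to 18 on day 20. The log2 difference of 1.005 ± 0.53, or 2.01-fold, was just inside the limit of 2-fold, and was 1.19 and 0.80 in the 2 sets of blocks. Among the miRNAs just outside, miR-190 read 0.83 ± 0.96, miR-23a 0.80 ± 1.03 and miR-365 0.79 ± 0.24. Over the TAC days miR-223 averaged 10.8, 780.5, 281.2 and 777.5 units, and 407 units on sham. Day 15 was below day 10 and day 20 in signal. This held after normalisation, with log2 levels of 9.25, 8.59 and 9.59 on days 10, 15 and 20.

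The leukocyte list as a whole was split. Of its 11 members, 10 were on the array and 9 were above the floor on both arrays, 5 reading above 0 and 4 below, with a median of 0.42 beside -0.02 over all 206. Of the pan-leukocyte pair miR-142, the -3p arm read 6724.8 units on day 15 and 8668 on day 20 (0.46 ± 0.37) and the -5p arm 1050.8 and 1438.5 (0.42 ± 0.41). The lymphocyte miRNA miR-150 went the other way, with 5941.5 units on day 15 and 4391.8 on day 20 (-0.24 ± 0.39), as did miR-181d (-0.49 ± 0.31), miR-181b (-0.34 ± 0.11) and miR-181a (-0.11 ± 0.78). MiR-181c was above the floor on day 20 alone. The summed signal of the 9 was 17614.8 units on day 15 and 20274.6 on day 20. In blocks 19 to 36 alone no member reached 2-fold and the median was 0.18. The erythroid miRNAs, which follow the blood in a heart sample, hardly differed: miR-451 read 0.00 ± 0.52 and miR-144 -0.09 ± 0.47. The part that white cells had in the higher values of miR-146a and miR-223 was not tested.

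MiR-10a-5p is encoded between Hox genes and is found in fibroblasts and other stromal cells. Its spots read -41, -47, 449 and 734 units on day 15 and 305, 292, 1261 and 1355 units on day 20. Within each set of blocks day 20 was higher, by 1.37 and 1.05, but the sets were so far apart that the arrays overlapped. Together this gave a log2 difference of 1.22 ± 0.91, or 2.33-fold. From TAC day 5 to day 20 the mean signals were -34.2, 3.8, 273.8 and 803.2 units, and on sham 421.8 units. Its close relative miR-10b was below the floor on day 15 (-18.2 units) and above it on day 20 (280.2 units), which gives a bound of at least 1.56-fold higher.

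MiR-125b-5p, the mammalian relative of the worm miRNA lin-4, is abundant in many differentiated tissues and has been reported at higher levels in hypertrophic hearts. Its spots read 519, 2249, 11948 and 18639 units on day 15 and 4739, 6213, 19929 and 21402 units on day 20. On day 15 the 2 sets of blocks differed severalfold, and the spots of the arrays overlapped. The log2 difference was 1.19 ± 1.11, or 2.28-fold, from 1.88 in blocks 1 to 18 and 0.61 in blocks 19 to 36, where it was under 2-fold. Its mean signal was higher on each later TAC array, with 1214.8, 2515.5, 8338.8 and 13070.8 units, and was 18760 units on sham. MiR-125a-5p, with the same seed, read 2832.8 units on day 15 and 2629.5 on day 20, and its difference of 0.33 ± 1.15 was small against its spots.

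**Figure D2:**
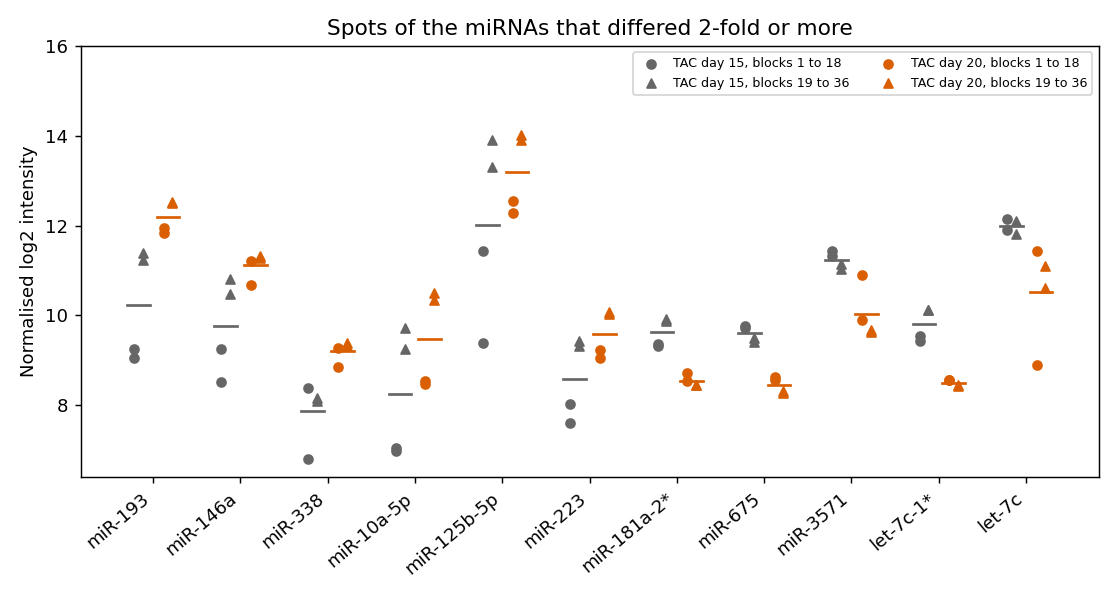
Normalised log2 intensity of each of the 4 spots of the 11 miRNAs at 2-fold or more, TAC day 15 in grey and TAC day 20 in orange, with circles for blocks 1 to 18, triangles for blocks 19 to 36 and a bar at the mean. The 5 lower miRNAs show no overlap between arrays, whereas 4 of the 6 higher ones do, with the day 15 circles far below the triangles.

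Among the lower miRNAs, let-7c differed most. The let-7 family promotes differentiation and opposes proliferation, and its members share the seed GAGGUAG. The 4 let-7c spots read 3563, 4493, 3248 and 4242 units on day 15 and 434, 2672, 1978 and 1468 units on day 20. All spots of day 20 were below all of day 15, with 1 spot of day 20 far below the rest. The arrays differed by -1.48 ± 0.57 in log2, or 2.79-fold lower, from -2.06 in blocks 1 to 18 and -0.93 in blocks 19 to 36. Over TAC days 5, 10, 15 and 20 let-7c averaged 7189, 7456.2, 3886.5 and 1638 units, the last of them the closest to the 1325 units of the sham array.

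The rest of the let-7 family did not share this difference as reported here. Its 7 other members lay between -0.24 (let-7e, ± 0.12) and 0.40 (let-7i, ± 0.46). The family median was 0.03 over 8 measured members, none of them 2-fold higher and 1 lower, beside 6 (2.91%) and 5 (2.43%) of all 206. Counting from the 5′ end of let-7c, let-7a differs from it by G19A and let-7b by A17G. Let-7a read 1740.5 units on day 15 and 1800.5 on day 20 (-0.01 ± 0.18). Let-7b read 5097.2 and 4068.2 units, but its mean log2 difference was 0.25 ± 0.98, since its sets of blocks disagreed (0.83 and -0.51). Over the alternative settings let-7b ranged from -1.03 to 0.83. With the authors' processed values 2 members of the family read 2-fold or more lower. Probes for sequences that differ by 1 base may bind each other's target, and how far they did so here was not tested.

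Let-7c is made from a hairpin on chromosome 11 (mature at chr11:29688127-29688148) and from another on chromosome 7 (chr7:118683636-118683657), both on the plus strand. The array also carries the other arm of the first hairpin, let-7c-1*. Its spots read 609, 544, 973 and 974 units on day 15 and 315, 311, 285 and 277 units on day 20. The arrays did not overlap, and both sets of blocks were past 2-fold, at -1.14 and -1.47. The log2 difference was -1.30 ± 0.19, or 2.47-fold lower. Its course over the TAC arrays was unlike that of let-7c, with 23.8, 123.8, 775 and 297 units and a peak on day 15, and sham gave 101.2 units.

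Neighbours of the let-7c-1 hairpin did not read lower. The hairpin of miR-99a lies 0.6 kb from it on the same strand, and miR-99a read 1327 units on day 15 and 1830.2 on day 20 (0.38 ± 0.29). The mature miR-125b-5p of the same locus lies 44.4 kb from let-7c (chr11:29732588-29732609) and read 2.28-fold higher, as given above. MiR-125b-5p is also made from a hairpin elsewhere, so its signal is not that of this locus alone. The same holds for let-7c, which the hairpin on chromosome 7 also produces. Let-7c and let-7c-1* thus read lower while miR-99a and miR-125b-5p read above 0.

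MiR-3571 is annotated on the strand opposite miR-1 on chromosome 18. The mature sequences, miR-3571 at chr18:2160340-2160362 on the plus strand and miR-1 at chr18:2160339-2160360 on the minus strand, overlap by 21 bases, and those 21 bases are complementary. The miR-3571 spots read 2298, 2106, 1847 and 1747 units on day 15 and 900, 1728, 774 and 792 units on day 20. Each day 20 spot was below each day 15 spot. This was a log2 difference of -1.21 ± 0.31, or 2.31-fold lower, with -1.14 and -1.25 in the 2 sets of blocks. MiR-1, the most studied miRNA of heart muscle, averaged 13415.2 units on day 15 and 13756 on day 20, and its difference was -0.07 ± 0.14. Over the TAC days miR-3571 averaged 3384, 2143, 1999.5 and 1048.5 units, and 641.8 units on sham. Its normalised log2 levels on those TAC arrays were 12.22, 11.05, 11.24 and 10.03, so after normalisation day 15 was above day 10. The normalised log2 levels of miR-1 were 14.62, 13.82, 13.49 and 13.43, which span more than 2-fold between day 5 and day 20. They hardly differ between day 15 and day 20. The mean signals of miR-1 over the TAC days were 11365.5, 13461.5, 13415.2 and 13756 units. Its lower value on day 20 than on day 5 was thus seen after normalisation alone.

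MiR-675 is cut from H19, an imprinted noncoding RNA that is high in fetal tissues. Its spots read 736, 760, 532 and 593 units on day 15 and 341, 318, 241 and 235 units on day 20. The spots of each array were tight and did not overlap. The log2 difference was -1.15 ± 0.12, or 2.22-fold lower, with -1.32 and -0.94 in the sets of blocks. The TAC arrays in order of days gave 520.2, 355.8, 655.2 and 283.8 units, all above the 85 units of sham. The other arm, miR-675*, was below the floor on both arrays.

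MiR-675 belongs to a list of 41 miRNAs of the imprinted H19 and Dlk1-Dio3 loci, of which 7 were above the floor on both arrays, 5 on day 20 alone and 29 on neither. Of the 7, none read 2-fold higher and 1 lower, 1 lay above 0 and 6 below, and the median was -0.34. Over all 206, 6 (2.91%) read 2-fold higher and 5 (2.43%) lower, with a median of -0.02. With arrays scaled by their medians the list median was -0.13 where all 206 stood at 0.23. Of the Dlk1-Dio3 members, miR-668 read 254.5 units on day 15 and 203.5 on day 20 (-0.54 ± 0.07) and miR-667 1262.8 and 1059.5 (-0.34 ± 0.11), neither with overlapping spots. MiR-329 read -0.35 ± 0.20. The exception was miR-300-5p, at 895.5 and 1240.5 units (0.38 ± 0.05), whose spots did not overlap either.

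MiR-181a-2* is the less abundant arm of a miR-181a hairpin on chromosome 3 (chr3:43025646-43025664, plus strand). Its spots read 511, 483, 892 and 860 units on day 15 and 309, 361, 281 and 282 units on day 20. The spots did not overlap, and the log2 difference was -1.09 ± 0.17, or 2.13-fold lower, with -0.93 and -1.27 in the sets of blocks. The main arm, miR-181a, which 2 hairpins produce, read 1236.8 and 1226 units. Over TAC days 5, 10, 15 and 20 miR-181a-2* averaged 36.2, 90.8, 686.5 and 308.2 units, with a peak on day 15 as for let-7c-1*, and sham gave 154.8 units. Below it in size, the next lower miRNAs were miR-294 at -0.58 ± 0.11 and miR-27b at -0.56 ± 0.56, both short of 2-fold.

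**Figure D3:**
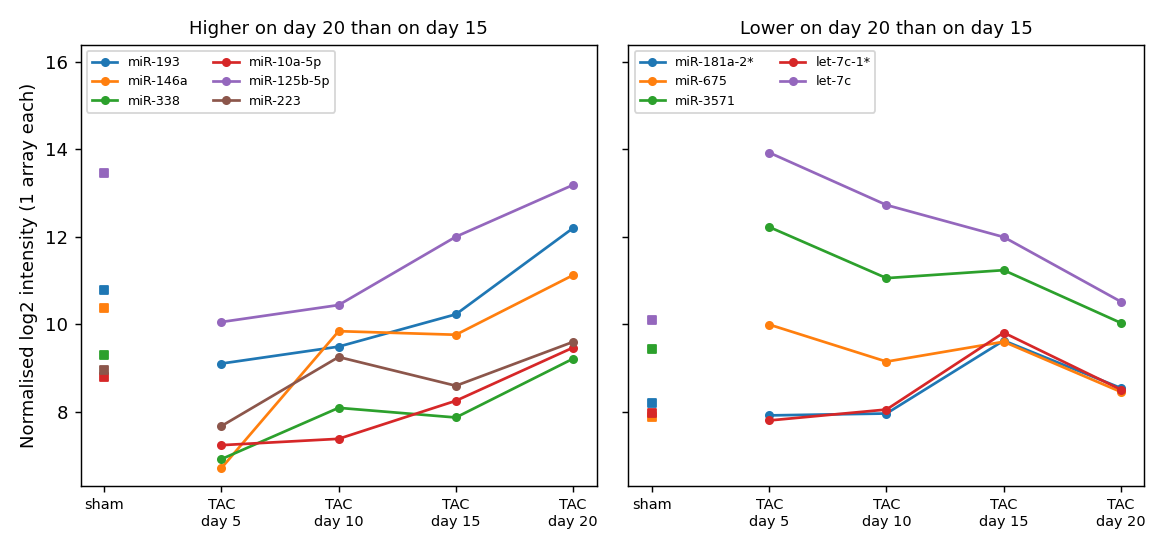
Normalised log2 intensity of the 11 miRNAs on each array, with sham as separate squares and the 4 TAC arrays joined in order of days; each point is the mean of 4 spots on 1 array. On the left the 6 miRNAs that read higher on day 20 than on day 15, and on the right the 5 that read lower, where let-7c-1* and miR-181a-2* peak on day 15 and let-7c is lower on each later TAC array.

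Let-7c-1* and miR-181a-2* were the star strands at 2-fold or more. Of 241 probes for star strands, 58 were above the floor on both arrays, of which none read 2-fold higher and 2 lower, with a median of -0.02, beside 6 (2.91%) higher and 5 (2.43%) lower of all 206. Median scaling left 1 of them lower, let-7c-1*, and the authors' processed values gave 5 higher and 2 lower. Those that read highest, miR-32* (765 to 1274.2 units, 0.64 ± 0.09) and miR-505* (86.2 to 321.2 units, 0.58 ± 0.15), did not overlap between arrays but were under 2-fold. For the dim miR-505* this depended on the processing. It was past 2-fold in 2 of 12 alternative settings that recompute the values, and reached 1.76. A single miRNA was above the floor on day 15 alone, the star strand miR-196b*, at 60.5 units on day 15 and 16 on day 20, at least 1.54-fold lower.

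On day 20 alone, 51 miRNAs were above the floor. Of these, 35 had a day 20 signal that was above the floor of day 15 as well. The rest were above the lower floor of day 20 but not above that of day 15. None of the 51 had a bound of 2-fold or more. The largest bounds were those of miR-10b (above), miR-466c (39.8 to 145.2 units, at least 1.16-fold higher), miR-221 (6.8 to 130.5 units, at least 1.11-fold), miR-186* (21 to 125 units, at least 1.10-fold) and miR-878 (27 to 122.2 units, at least 1.09-fold).

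None of the muscle-enriched miRNAs reached 2-fold as reported here. Over the 10 measured, 4 were above 0 and 6 below, with a median of -0.08. With arrays scaled by their medians it was 0.11, where all 206 stood at 0.23. The lowest was miR-206, a relative of miR-1 best known from skeletal muscle, at 1563 units on day 15 and 1234.2 on day 20 (-0.50 ± 0.15), with no overlap of spots. MiR-133a, which is cotranscribed with miR-1, read 30618.8 and 25847.2 units (-0.15 ± 0.11), but -0.78 in blocks 1 to 18 and 0.19 in blocks 19 to 36. Of the miRNAs inside myosin genes, miR-208b-3p of the beta heavy chain read 0.03 ± 0.34 and miR-499 -0.09 ± 1.03, which became -1.52 with the authors' processed values. MiR-208 of the alpha heavy chain had 2 of its 4 spots at the ceiling of the scanner scale on day 15 and none on day 20, so its day 15 level is a lower limit. Its nominal value of 0.35 was 1.30 with those spots left out and -0.14 with the authors' values, and no direction can be read from it. MiR-22, abundant in cardiac muscle, had 2 such spots on each array, which limits its difference of 0.43 ± 0.34.

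Of the fibroblast and stromal miRNAs, 7 of 9 were measured on both arrays, and miR-10a-5p was the 1 at 2-fold, with a list median of 0.13. Over all 206, 6 (2.91%) read 2-fold higher and 5 (2.43%) lower, with a median of -0.02. MiR-21, which is high in fibroblasts and promotes fibrosis, read 1982 units on day 15 and 2976.2 on day 20 (0.36 ± 0.13). MiR-199a-3p read 0.40 ± 1.01, miR-214 -0.18 ± 0.35 and miR-152 -0.04 ± 1.05, and miR-31 was above the floor on day 20 alone. The miR-29 family, which represses collagens, was not 2-fold apart in any member: miR-29a read 10383 and 12759 units (0.48 ± 0.85), miR-29b -0.15 ± 0.13 and miR-29c 0.07 ± 0.07. Endothelial miR-126 (0.24 ± 0.25) and smooth muscle miR-143 (0.22 ± 0.42) and miR-145 (-0.16 ± 0.07) were likewise under 2-fold.

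**Figure D4:**
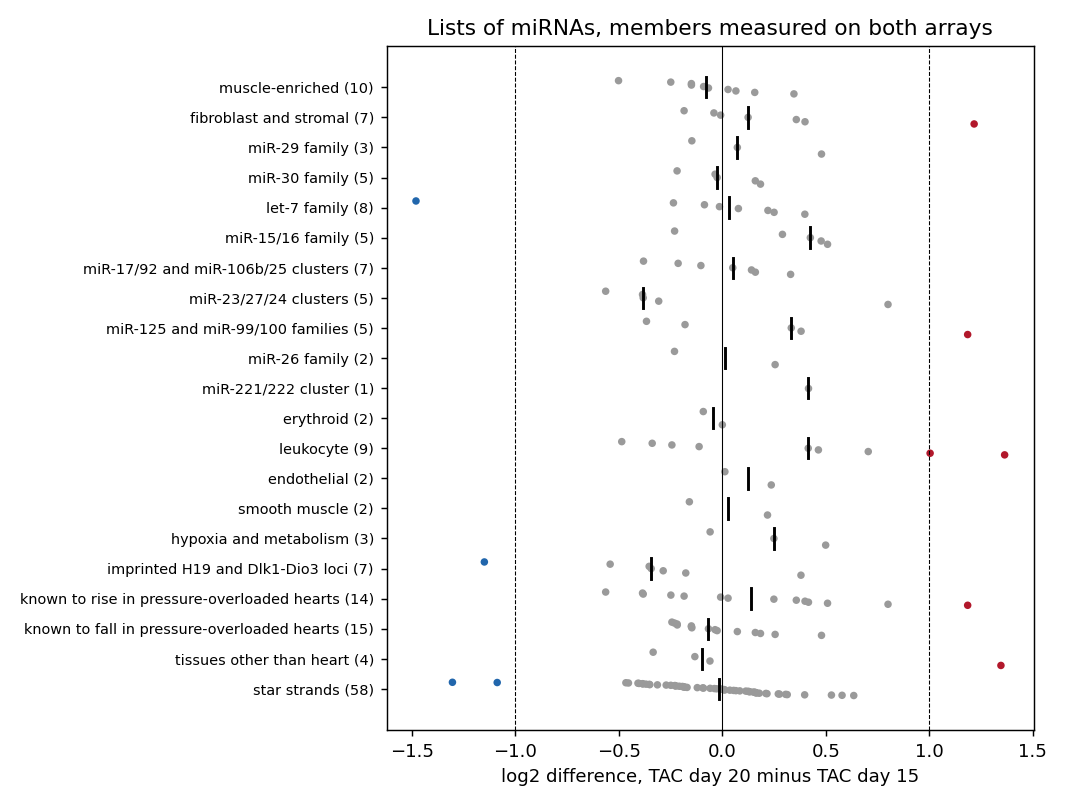
Log2 difference, TAC day 20 minus TAC day 15, of each list member above the floor on both arrays (points, number of members in brackets) with the list median (bar); dashed lines mark 2-fold. Members at 2-fold or more are in red (higher) or blue (lower), and most lists straddle 0.

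Of 14 measured miRNAs that earlier work reports as rising in pressure-overloaded hearts, 1 read 2-fold higher (miR-125b-5p) and none lower, with a median of 0.14. Over all 206, 6 (2.91%) read higher and 5 (2.43%) lower, with a median of -0.02. None of the 14 was 2-fold higher in blocks 19 to 36 alone or with the median of spots. The list median was 0.40 with median scaling and -0.01 with spike-in scaling, where all 206 stood at 0.23 and -0.18. Of 15 reported as falling, none was at 2-fold and the median was -0.07. With arrays scaled by their medians it was 0.09, where all 206 stood at 0.23. In the miR-15/16 family, known for holding back cell division, 4 of 5 members were above 0 and the median was 0.43, led by miR-195 (5241.5 to 6065.2 units, 0.51 ± 0.58) and miR-15b (807.2 to 1225.5 units, 0.48 ± 0.60), with miR-322 at -0.23 ± 0.19. Each had an SE larger than or close to its difference. In the miR-23/27/24 clusters 4 of 5 members lay below 0, but miR-27b (-0.56 ± 0.56) and miR-23a (0.80 ± 1.03) differed by -1.19 and 1.40 in blocks 1 to 18 and by 0.01 and 0.10 in blocks 19 to 36. The median of -0.38 was 0.01 in blocks 19 to 36. The 5 measured miR-30 members, abundant in cardiomyocytes, lay between -0.22 and 0.18, and the 7 of the miR-17/92 and miR-106b/25 clusters, which promote proliferation, between -0.38 and 0.33. MiR-210, induced by hypoxia, read 0.25 ± 0.60, and miR-378, encoded in the gene of a metabolic coactivator, 0.50 ± 0.77, from -0.52 and 1.47 in the sets of blocks.

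The late interval held fewer differences than the earlier ones, counted in the same way. Between TAC day 10 and day 15, 28 of 192 miRNAs (14.6%) differed 2-fold or more, 17 (8.85%) higher and 11 (5.73%) lower on the later array. Between day 5 and day 10 the count was 38 of 152 (25%), 14 (9.21%) higher and 24 (15.8%) lower. Neighbouring intervals share an array, and the sets of blocks differed most on day 10, with a median log2 excess of 0.96 in the second set, against 0.14 on day 5. In blocks 1 to 18 alone the counts were 14 of 206 for the late interval and 14 of 152 from day 5 to day 10. The arrays also differed in brightness and noise. The TAC day 5 array had the highest floor, 72.1 units, and the fewest rat miRNAs above it, 162. Its median signal over the miRNAs compared in the late interval was 319 units, against 771.5 units for the TAC day 20 array. The median SD over spots, in log2, was largest for TAC day 10 (0.64), while TAC day 5 (0.26) and TAC day 20 (0.27) were close. What these features did to the counts was not tested. With 1 array per time, the difference between intervals has no test.

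The 11 differences were recomputed under up to 16 alternative settings of scaling, background, floor, spot summary and slide position. Of these, 4 changed only the floor or left out saturated spots and could not move the values of the 11, so they show nothing about them. Under the 12 that recompute the values, miR-193, miR-338, miR-10a-5p and let-7c-1* were past 2-fold in 12, miR-146a, let-7c and miR-3571 in 11, miR-675 and miR-181a-2* in 10, miR-125b-5p in 9 and miR-223 in 8, and no sign changed. With median scaling miR-3571 (-0.82), miR-675 (-0.91) and miR-181a-2* (-0.84) were short of 2-fold, and let-7c and let-7c-1* were the 2 lower miRNAs left. Let-7c (-0.93) and miR-675 (-0.94) were short of it in blocks 19 to 36 alone, and miR-181a-2* (-0.93) in blocks 1 to 18 alone. Of the higher ones, miR-146a, miR-125b-5p and miR-223 were short of it in blocks 19 to 36 alone. MiR-125b-5p was also short with the median of spots and with the authors' processed values. MiR-223 was also short with the median of spots, with spike-in scaling and with quantile normalisation within each set of blocks. When arrays were scaled by their medians, which moved the median of all 206 to 0.23, 8 miRNAs read 2-fold higher and 2 lower.

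**Figure D5:**
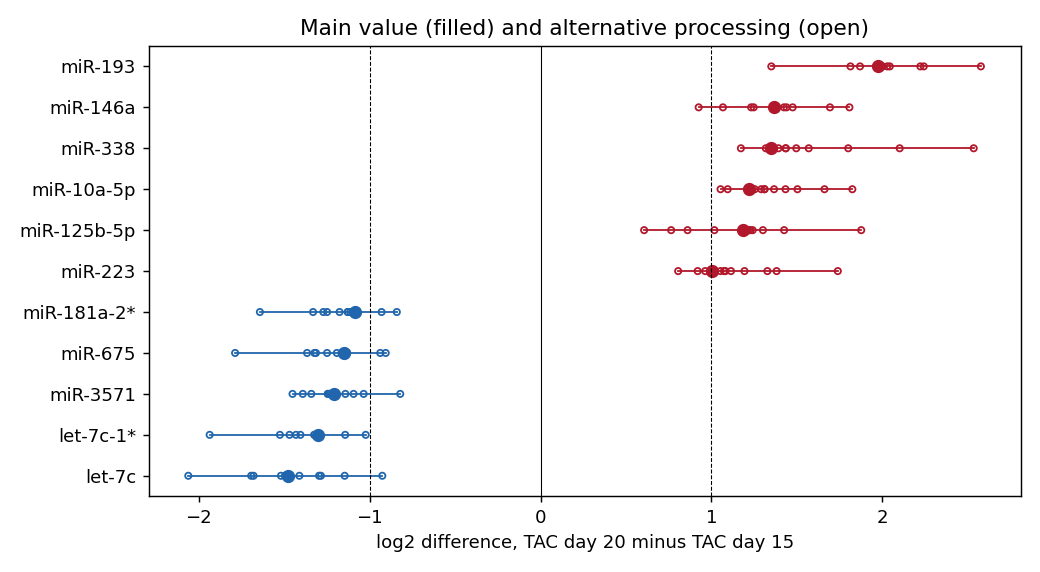
Log2 difference, TAC day 20 minus TAC day 15, of the 11 miRNAs as reported (filled) and under each alternative setting (open), with lines from the lowest to the highest value and dashed lines at 2-fold. All values of a miRNA lie on one side of 0; miR-193 ranges from 1.35 to 2.58 and miR-125b-5p from 0.61 to 1.88.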

How the data were processed

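The authors deposited a raw table with a foreground and a background-subtracted intensity for each spot and array, per the file headers, and without normalisation between arrays. Their processed table holds, for each probe, a ratio: the median of its background-subtracted spots over a constant of that array, as found from the deposited values. Image software was not given in the sources used here. Foregrounds were corrected with normexp (offset 50, limma 3.58.1, R 4.3.3) and quantile normalised over the rat miRNA spots of 5 arrays, and log2 values were averaged over the 4 spots of each probe. The offset, added to every spot, shrinks the differences of dim probes. Printed units are means of the deposited background-subtracted intensity. Of the 2 arrays compared, a miRNA above the floor on 1 alone got a bound against the floor. Counts of 2-fold differences were checked on simulated data.

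Members and lists were chosen with earlier results of these data known. Named were all miRNAs at 2-fold or more, some just short of it, the largest bounds, and in each list the 4 members that differed most. MiRNAs of cardiac interest were named too, as were strands, seed relatives or genomic neighbours of those named. Other list members were named where their list is described. Older array names were matched to RefSeq arm names by hand. The raw column used for sham is headed day 15 although its label says day 5; it entered the normalisation and serves as context only. Control and unnamed probes were left out.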

Additional observations from a re-analysis of the deposited data

Results flagged for a closer look

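Of 1901 probes without a name, which no comparison used, 537 were above the floor on TAC day 20 and 424 on TAC day 15. Of the 421 above it on both, 17 read 2-fold or more higher on day 20 and 4 lower (4.99%) with arrays scaled by their medians, beside 8 and 2 of the 206 rat miRNAs under the same scaling. Their median log2 difference was 0.13, against 0.23 for the rat miRNAs. The floor of day 20 was the lower one, and what these probes detect was not analysed here.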

How the results depend on the processing

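No paired analysis was possible because both days had a single array. The 11 miRNAs at 2-fold or more between day 15 and day 20 became 17 (11 higher, 6 lower) with plain background subtraction, 26 (19 higher, 7 lower) with the authors' processed values and 7 (4 higher, 3 lower) in blocks 19 to 36 alone; the cause was not tested. Median scaling gave 8 higher and 2 lower and moved the median of all miRNAs to 0.23, and spike-in scaling gave 5 and 5 and moved it to -0.18. The other settings gave 10 to 14, and a floor taken as the higher of both arrays, chosen after seeing the data, gave 6 and 5 of 204. For day 15 against day 10 the count of 28 became 117 with spike-in scaling, 54 with plain subtraction, 49 in blocks 1 to 18, 48 in blocks 19 to 36 and 59 with the authors' values. For day 10 against day 5 the count of 38 became 61 with plain subtraction, 73 of 678 without a floor, 14 in blocks 1 to 18, 75 in blocks 19 to 36 and 65 with the authors' values. Signal over background limits dim miRNAs such as miR-338 on day 15.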

Other observations

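Of 23 reference small RNAs, 12 were above the floor on both arrays. With arrays scaled by their medians, a U6 small nuclear RNA probe (RNU6-1_RNU6-2) read 3777 units on TAC day 15 and 7542 on day 20, a log2 difference of 1.21, and another U6 probe (RNU6-1) differed by 0.96. The nucleolar SNORD38B differed by 0.61, SNORD13 by -0.33 and 5S_rRNA by -0.10. The rat miRNAs had a median of 0.23 on that scale, and 43 spike-in probes above the floor on both arrays had a median of 0.41. Of these 43 spike-in probes, 6 read 2-fold or more higher on day 20 and 0 lower (13.95%). Under the same scaling, 8 of the 206 rat miRNAs read higher and 2 lower (4.85%).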
